A study of Bos taurus with 10 samples.

Results

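The genes described here are 10 genes of the primitive endoderm and of the basement membrane it lays down: PDGFRA, GATA4, SOX17, HNF4A, COL4A1, COL4A2, LAMA1, LAMB1, LAMC1 and FN1. They were picked by gene name out of 17499 named genes on the array, and were represented by 41 probes. The array was a 1-colour Agilent bovine oligonucleotide array, on which each probe is a 60-base sequence and RNA is labelled with the dye Cy3. It was hybridised with total RNA from 10 samples of bovine (Bos taurus) embryos, 1 array per sample. All embryos came from superovulated cows. Insemination, with semen that had been frozen, took place at 108 and at 120 h of superovulation, and flushing of the uterus 7 days after the first of these. At 48 h the senktide cows had received a 2 h intravenous infusion of the peptide; when and how vehicle was given is not stated in the sources used here. The vehicle group, labelled DMSO, held 2 samples; 4 samples came from cows given 30 nmol/min of senktide, a peptide that activates the neurokinin-3 receptor, and 4 from cows given 300 nmol/min. The stated question was whether senktide affects embryo quality and stage. The labels give neither the number of embryos in a sample nor whether samples came from separate cows, so each p-value reflects the spread among samples that may differ only technically.

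In the mammalian blastocyst the inner cell mass separates into epiblast and primitive endoderm, the extraembryonic layer that faces the cavity. Primitive endoderm cells carry the receptor tyrosine kinase PDGFRA, and GATA4, SOX17 and HNF4A are transcription factors of this lineage or of the visceral endoderm that arises from it. The layer is also known for secreting basement membrane. Its sheet is built from collagen IV, a triple helix of COL4A1 and COL4A2 chains, and from laminin-111, a trimer of LAMA1, LAMB1 and LAMC1 chains. FN1 encodes fibronectin, a matrix glycoprotein that cells bind through integrins.

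The share of probe spots well above background, the scanner software's flag for a spot brighter than its surroundings, was 7.17% and 9.44% on the vehicle arrays and 8.77% to 19.6% on the 8 senktide arrays. The arrays lay on 3 slides. Replicate 1 of each group lay on slide 1, replicate 2 on slide 2, and the other senktide samples on slide 3, so no vehicle array lay on slide 3. On slide 3 at least 18.3% of probe spots were well above background. Of 8 trophectoderm markers, 6 were well above background on all 10 arrays, among them KRT8, KRT18, GATA2 and GATA3, while CDX2 was so on none. Of 5 inner cell mass markers, SOX2 reached this on all 10 arrays and POU5F1 on 2 arrays of each senktide group; NANOG, LIN28A and LIN28B were so on none. Of the markers of other cells, none of 5 for endothelium, 1 of 8 for cumulus and granulosa cells, 1 of 3 for blood, 2 of 5 for uterine epithelium, 3 of 9 for stroma and 4 of 7 for leukocytes were well above background on any array. The leukocyte marker LYZ, lysozyme, was so on all 10 arrays, and PTPRC, the leukocyte surface antigen CD45, on 0 vehicle arrays, 2 at 30 nmol/min and 3 at 300 nmol/min.

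The genes with measurable signal were read through probes near the 3′ end of their transcripts. The probes of FN1 show this best, because 13 of them tile 1 transcript from base 883 to base 7963. The next sequences are shown because they lie on either side of the point where the fibronectin signal appeared. A single reading frame was free of stop codons in the 9 probes from base 883 to base 7286, and its TAA stop codon lay at bases 7358 to 7360, inside the probe at base 7356. Capitals mark the first whole codon of that frame in each probe, and the number is the transcript base at which the probe starts.
FN1 base 6245: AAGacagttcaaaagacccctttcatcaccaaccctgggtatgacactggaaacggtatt
FN1 base 6600: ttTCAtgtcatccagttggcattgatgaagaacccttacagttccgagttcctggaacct
FN1 base 7033: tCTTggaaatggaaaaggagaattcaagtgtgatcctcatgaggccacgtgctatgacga
FN1 base 7286: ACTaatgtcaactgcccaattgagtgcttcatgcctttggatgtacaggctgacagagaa

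All 4 sequences lie in that frame, and they differed in detection. The probe at base 6245 was well above background on 1 array, that at base 6600 on none, that at base 7033 on 9 of 10 (all but vehicle replicate 1) and that at base 7286 on all 10. The 5 probes 5′ of base 6245 were well above background on none of the arrays, and the 4 probes from base 7356 onward, which lie at or past the stop codon, on all 10. The files give no genome position for the FN1 probes.

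COL4A1 gave the same picture with fewer probes. Its probe at base 3361 is shown because it spells the collagen repeat, in which glycine recurs at a fixed spacing; capitals mark the 6 glycine codons spaced 9 bases apart. It lies on chr12:82969811-82969870, minus strand, in the build Btau_3.1 named by the file headers. The pattern, a codon starting with GG every 9 bases along the whole probe, was present in 17 of 43653 probes (0.0389%).
COL4A1 base 3361: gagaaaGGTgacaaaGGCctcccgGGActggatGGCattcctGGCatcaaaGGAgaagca

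This collagen-repeat probe was well above background on none of the 10 arrays, nor were the COL4A1 probes at bases 500 and 5104. The probe at base 5710 (chr12:82951471-82951530, minus strand) was so on 7 arrays. None of its 3 reading frames is free of stop codons, as in 14.4% of all probes, and it holds the letters AATAAA, the usual polyadenylation signal. AATAAA stood on the sense strand of 1 of the 41 probes described here and of 9.35% of all probes, and its reverse complement TTTATT stood in 0 of the 41 and in 3.46% of all probes.

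HNF4A followed the same order, with its probe at base 4387 (chr13:73618185-73618244, plus strand) well above background on every array and its probes at bases 815, 867 and 2545 on none. For PDGFRA the probe at base 6249 (chr6:72346203-72346262, plus strand) was well above background on 6 arrays and that at base 6051 (chr6:72346005-72346064) on 4, while the probes at bases 471, 1204, 3000 and 3941 were so on none. LAMB1 had 1 probe, at base 5380 (chr4:51007942-51008001, minus strand), which was well above background on 9 arrays.

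**Figure D1:**
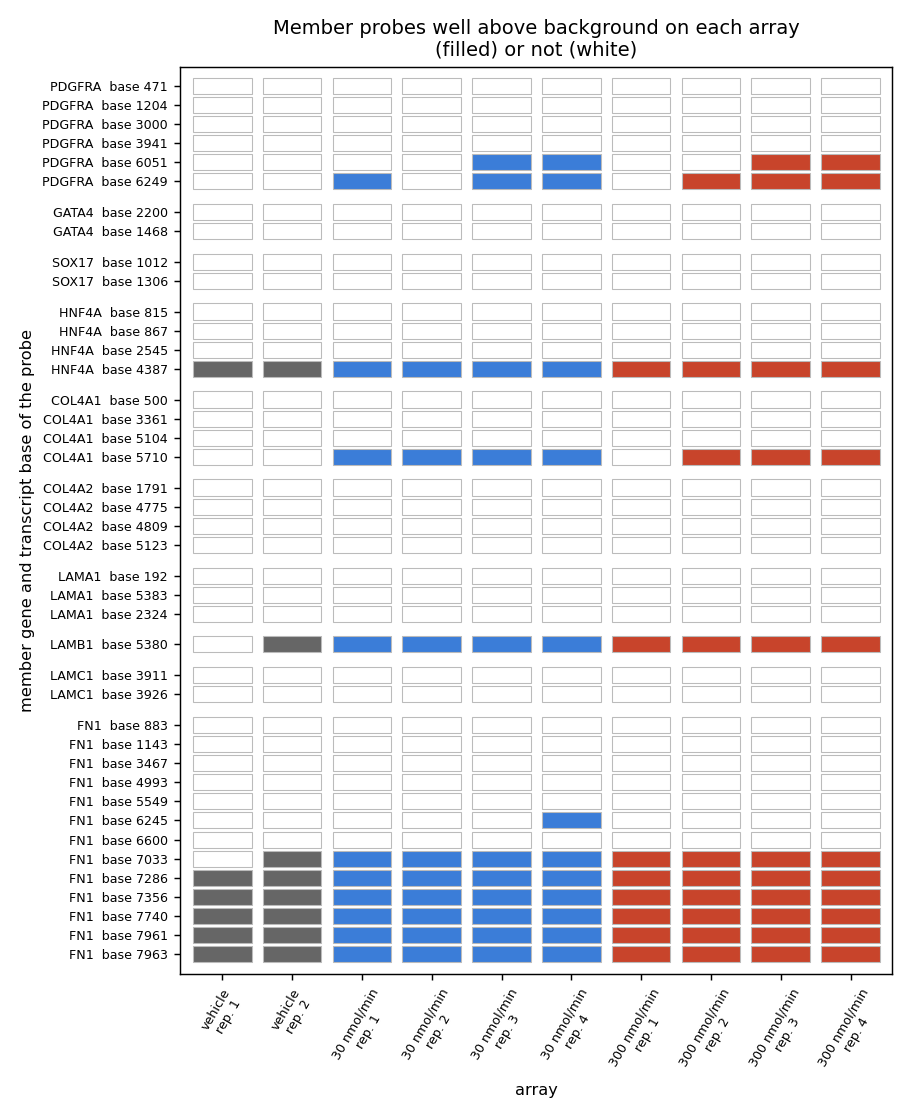
Each row is 1 of the 41 probes, labelled by gene and transcript base, and each column is 1 array (grey, vehicle; blue, 30 nmol/min; red, 300 nmol/min); filled cells are well above background. Filled cells occur in the probes with the highest bases of PDGFRA, HNF4A, COL4A1 and FN1, in the single LAMB1 probe and, on 1 array, in the FN1 probe at base 6245, and GATA4, SOX17, COL4A2, LAMA1 and LAMC1 have none.

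This position dependence was a feature of the whole array. Among 312 other RefSeq transcripts with at least 3 probes spanning at least 1000 bases and at least 1 probe well above background throughout, the last probe was so in 83.0% and the first probe in 6.73%. Where the last probe was well above background on all 10 arrays, the same held for 60% of 95 other probes within 250 bases of it and for 7.36% of 163 probes lying 501 to 1000 bases before it. The FN1 signal reached further: the probe at base 7286, 677 bases before the last one, was so on all 10 arrays, and the probe at base 7033, 930 bases before it, on 9.

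**Figure D2:**
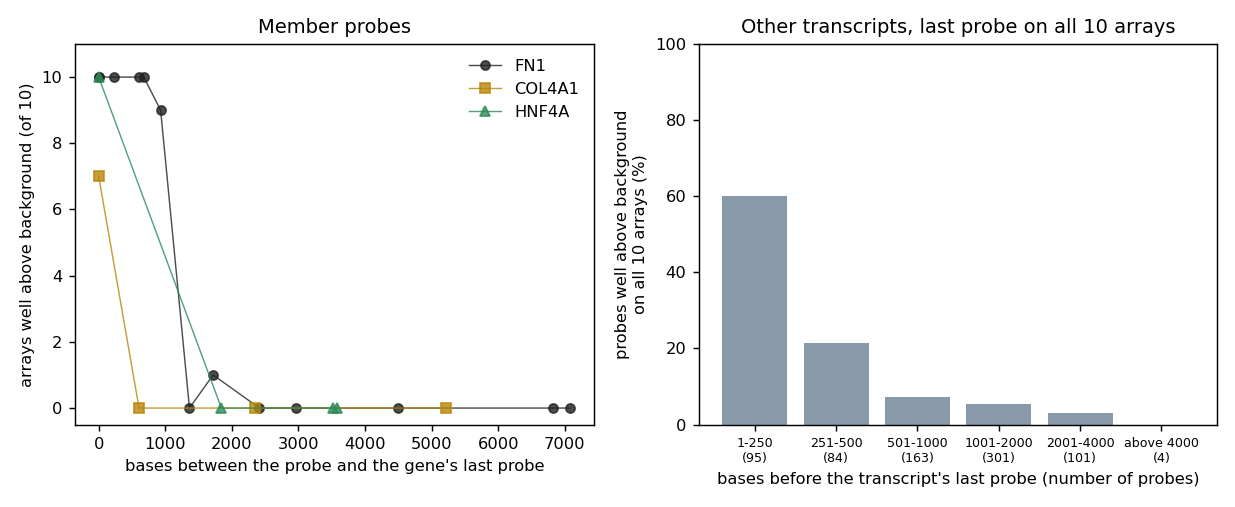
Left, the number of arrays (of 10) on which each FN1, COL4A1 and HNF4A probe was well above background against its distance in bases from the last probe of the gene. Right, for 259 other transcripts whose last probe was well above background on every array, the percentage of their other probes that were also so, in distance classes with the number of probes in brackets; it falls from 60% within 250 bases to 7.36% at 501 to 1000 bases.

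No signal could be measured for 5 of the 10 genes. GATA4 (2 probes, chromosome 8), SOX17 (2 probes, chromosome 14), COL4A2 (4 probes, chromosome 12), LAMA1 (3 probes, chromosome 24) and LAMC1 (2 probes, chromosome 16) had no probe well above background on any array of any group. In all, 29 of the 41 probes (70.7%) were well above background on no array, against 74.4% of all probes, and 11 (26.8%) were so on at least 2 arrays and were tested, against 20.5% of all probes. For the 5 genes without signal no level, fold change or difference between groups can be given. Among the 10 genes the label primitive endoderm thus rests on HNF4A and PDGFRA alone, and for laminin-111 on 1 of 3 chains. Detection on these arrays fell with distance from the last probe of a transcript. The LAMA1 probes began at bases 192, 2324 and 5383 of their transcripts, and the LAMC1 probes at bases 3911 and 3926. Those of COL4A2 began at bases 1791, 4775, 4809 and 5123. GATA4 had probes at bases 1468 and 2200, and SOX17 at bases 1012 and 1306. The part of probe position in the missing signal of the 5 genes was not tested. In a whole embryo sample, fewer cells of a type and less RNA per cell cannot be told apart.

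Levels below are log2 of the scanner's processed signal minus the 75th percentile of the 2491 probes flagged well above background on every array (the common probes), so that 0 is the level of that percentile. They serve to compare arrays for 1 probe, not 1 probe with another. Where a gene had several tested probes, the one with the highest mean stands for it.

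HNF4A, the nuclear receptor of the visceral endoderm, was the 1 transcription factor among the members that could be measured. Its scaled log2 level was −1.48 and −2.03 in the vehicle samples, −1.92, −1.46, −1.32 and −2.68 at 30 nmol/min, and −2.25, −1.62, −1.43 and −2.26 in the 300 nmol/min samples. The groups overlapped fully, and the lowest and highest of all 10 values both lay in the 30 nmol/min group. The mean differed from vehicle by −0.09 (SE 0.41; limma adjusted p = 0.938) at 30 nmol/min and by −0.14 (SE 0.41; limma adjusted p = 0.893) at 300 nmol/min. The 95% intervals, not adjusted for the number of probes, ran from −1.01 to 0.82 and from −1.05 to 0.78. Differences within these intervals were not excluded by these arrays. The SD of HNF4A over the 10 arrays, 0.45, was larger than that of 94.0% of those 2491 common probes, whose median SD was 0.24. The common probes were not matched to HNF4A for signal level. Within slide 1 the vehicle sample was the highest of the 3 HNF4A values and within slide 2 it was the lowest.

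PDGFRA, the receptor of the lineage, was near the limit of detection. Its probe at base 6249 was well above background in 0 of 2 vehicle samples, in 3 of 4 at 30 nmol/min and in 3 of 4 at 300 nmol/min. The scaled log2 values were −3.99 and −3.87 in vehicle, −3.49, −3.71, −3.40 and −3.64 at 30 nmol/min, and −3.77, −2.97, −3.90 and −3.25 in the 300 nmol/min samples. The 30 nmol/min samples all lay above the vehicle samples, while 1 of the 300 nmol/min samples lay between them. The differences from vehicle, 0.37 (SE 0.27; limma adjusted p = 0.580) at 30 nmol/min and 0.46 (SE 0.27; limma adjusted p = 0.447) at 300 nmol/min, were not past the threshold of 0.05. Both vehicle arrays give only a bound for this gene, and at that bound no fold above 1 remained for either dose. The probe at base 6051 was well above background on the 4 arrays of slide 3 and on no other; its fitted differences from vehicle were 0.83 (limma adjusted p = 0.424) and 0.88 (limma adjusted p = 0.322). Those differences for base 6051 rest on 2 vehicle values below the flag's limit, and their sign turned to −0.68 and −1.02 when values were raised to a floor per array, the lowest signal well above background, and to −0.69 and −0.82 with normexp background correction and the main scaling.

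**Figure D3:**
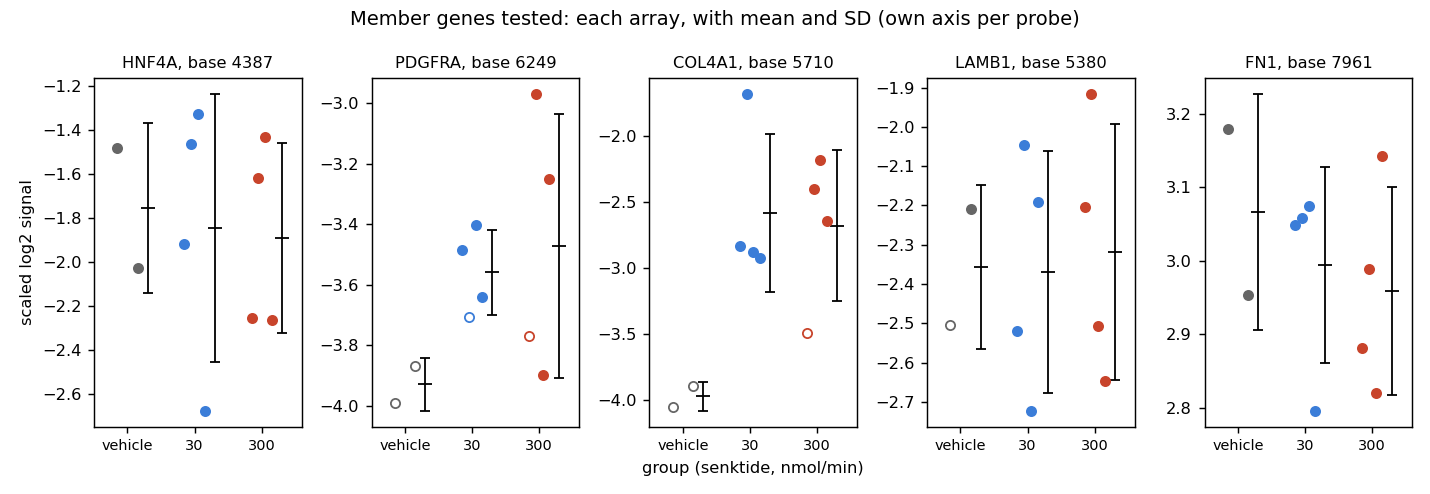
Scaled log2 signal of the probe that stands for each of the 5 measured genes, by group (senktide in nmol/min); each point is 1 sample, open where the probe was not well above background, and bars give the mean and SD. Each panel has its own axis. COL4A1 is the gene whose 2 vehicle samples, at −4.05 and −3.89, lie below every senktide sample at both doses.

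COL4A1, a chain of the collagen IV heterotrimer, was detected on 7 of the 8 senktide arrays and on neither vehicle array, and its difference from vehicle did not pass the test. The mean share of all probe spots well above background was 8.31% in vehicle, 14.5% at 30 nmol/min and 15.6% at 300 nmol/min. The probe at base 5710 was not well above background in either vehicle sample, at scaled log2 values of −4.05 and −3.89. At 30 nmol/min it was so in 4 of 4 samples, at −2.83, −1.68, −2.88 and −2.92, and at 300 nmol/min in 3 of 4, at −3.49 (not well above background), −2.40, −2.18 and −2.64. The lowest signal well above background lay, on the same scale, at −2.56 on vehicle replicate 1 and −3.30 on vehicle replicate 2. Senktide values such as −2.83 and −2.92 lie below the first of these, and nothing is read from the detection counts. All 8 senktide samples lay above both vehicle samples, and the 2 doses overlapped. The fitted difference from vehicle was 1.39 (SE 0.43; limma adjusted p = 0.316) at 30 nmol/min and 1.29 (SE 0.43; limma adjusted p = 0.273) at 300 nmol/min. Since vehicle gives only a bound, the group means of these samples under the main scaling gave a bound of 1.28-fold at 30 nmol/min and 1.19-fold at 300 nmol/min. It carries no sampling error, and the probe entered the test through senktide arrays alone. For this bound the dim group's value is the higher of the probe's own signal and the lowest signal well above background on each array. Raised to that floor, the COL4A1 values differed from vehicle by 0.35 (limma adjusted p = 0.597) and 0.25 (limma adjusted p = 0.700). Without vehicle replicate 2 neither bound exceeded 1-fold. Without vehicle replicate 1 the bounds were 1.65-fold and 1.54-fold. Within slide 1 the difference was 1.22 for 30 nmol/min and 0.56 for 300 nmol/min, with 300 nmol/min replicate 1 below the flag's limit, and within slide 2 it was 2.21 and 1.49.

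The COL4A1 result depended on how arrays were made comparable. With quantile normalization the difference from vehicle became 2.38 (limma adjusted p = 0.0432) for the lower dose and 2.23 (limma adjusted p = 0.0464) for the higher, both past the threshold; over the other alternatives adjusted p was no lower than 0.114 and 0.156. With normexp background correction and the main scaling the sign turned, to −0.48 and −0.58. Array brightness also differed between the vehicle and senktide groups. The 75th percentile signal of the commonly detected probes was 79.4 and 123 on the vehicle arrays, 99.5 to 406 at 30 nmol/min and 138 to 481 at 300 nmol/min. The array at 99.5 was 30 nmol/min replicate 2, where the scaled COL4A1 value was highest, and that at 123 was vehicle replicate 2. Before scaling, the COL4A1 signal was 31.0 in 30 nmol/min replicate 2 and highest, at 92.9, in 300 nmol/min replicate 3. Of the stroma markers, the collagen gene COL1A2 was well above background on 0 vehicle arrays, 2 at 30 nmol/min and 3 at 300 nmol/min, DCN on 0, 0 and 2, and PDGFRB on 1, 0 and 0, with COL1A1, COL3A1, LUM, THY1, VIM and POSTN at background on every array. The summed scaled level of the 3 detected stroma markers was 0.24 to 0.585 in vehicle, 0.0498 to 0.276 at 30 nmol/min and 0.0781 to 0.204 at 300 nmol/min. That sum is mostly of signal below the flag's limit, since at most 1 of the 3 was well above background on a vehicle array. Such signal, scaled to a lower percentile, comes out higher on dimmer arrays, and no direction is read from it. The part of array brightness or of these cells in the COL4A1 difference was not tested.

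LAMB1, the beta chain of laminin-111, passed the test in no comparison. Its scaled log2 level was −2.50 (not well above background) and −2.21 in vehicle, −2.52, −2.05, −2.72 and −2.19 at 30 nmol/min, and −2.20, −1.92, −2.51 and −2.65 in the 300 nmol/min samples. The groups overlapped, and the highest value of each senktide group lay on slide 2. The difference from vehicle was −0.01 (SE 0.27; limma adjusted p = 0.986; 95% interval −0.63 to 0.60) at 30 nmol/min and 0.04 (SE 0.27; limma adjusted p = 0.963; 95% interval −0.58 to 0.65) at 300 nmol/min.

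FN1 was measured by the most probes, and the probe that stands for it had the smallest SD over the arrays among the 5 measured genes. Its probe at base 7961 lay at 3.18 and 2.95 on the scaled log2 scale in vehicle, at 3.05, 3.06, 3.07 and 2.80 at 30 nmol/min, and at 2.88, 2.99, 2.82 and 3.14 at 300 nmol/min. All 10 values thus lay between 2.80 and 3.18, and the groups overlapped. The SD over the 10 arrays was 0.13, and 6.70% of those 2491 common probes, not matched for signal level, had a smaller one. The difference from vehicle was −0.07 (SE 0.19; limma adjusted p = 0.894; 95% interval −0.50 to 0.35) at 30 nmol/min and −0.11 (SE 0.19; limma adjusted p = 0.808; 95% interval −0.53 to 0.32) at 300 nmol/min.

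The other FN1 probes did not all share this narrow spread. The SD over the 10 arrays was 0.30 at base 7286, 0.25 at base 7356, 0.21 at base 7740 and 0.15 at base 7963. At base 7286 all 4 samples at 300 nmol/min, from −0.67 to −0.22, lay below both vehicle samples, at 0.06 and −0.12, with a difference of −0.36 (SE 0.27; limma adjusted p = 0.525). Across the 6 tested FN1 probes the difference from vehicle ranged from −0.16 to 0.12 at 30 nmol/min and from −0.36 to −0.10 at 300 nmol/min, and no adjusted p was below 0.525. Over the 10 arrays, the Pearson correlation between pairs of FN1 probes had a median of 0.72 over 15 pairs and ranged from −0.07, between bases 7033 and 7740, to 0.93, between bases 7286 and 7356. These correlations describe 1 gene on the same arrays, and the probes at bases 7961 and 7963 share nearly all of their sequence.

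**Figure D4:**
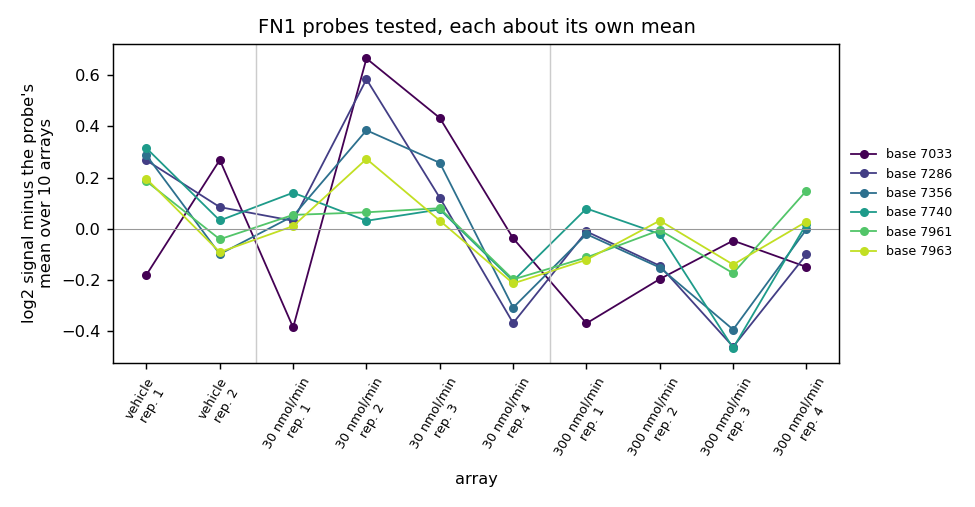
Log2 signal of each of the 6 tested FN1 probes minus its own mean over the 10 arrays, by array; lines only join the values of 1 probe, since replicates have no order. The probe at base 7961 stays within the narrowest range, and the probe at base 7033, which was not well above background in vehicle replicate 1, goes its own way on several arrays.

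Counted together, 0 of the 11 tested probes passed an adjusted p of 0.05 in limma in any of the 4 comparisons. The background was as sparse: 0% of 8938 tested probes passed for 30 nmol/min against vehicle, 0.0112% for 300 nmol/min against vehicle, 0% for 300 against 30 nmol/min and 0.0336% for both doses pooled against vehicle. At an unadjusted limma p under 0.05 the counts of the 11 were 2, 2, 0 and 2, of the probes COL4A1 at base 5710 and PDGFRA at base 6051, against 11.3%, 13.8%, 3% and 14.8% of all tested probes. These probes and PDGFRA at base 6249 were well above background on no vehicle array and so entered the test through senktide arrays alone, which favours values above vehicle, and nothing is read from their place there. At 30 nmol/min 2 of the 11 probes, COL4A1 and PDGFRA at base 6249, lay above vehicle without overlap, and 7.63% of all tested probes did so. At 300 nmol/min 2, COL4A1 and PDGFRA at base 6051, lay above without overlap (background 9.25%) and 1 lay below (background 16.3%). With both doses pooled 1, COL4A1, lay above (background 4.33%) and 0 below (background 7.04%), and at 30 nmol/min 0 lay below (background 11.9%). The probes above vehicle here all entered through senktide arrays alone, and nothing is read from these counts. The median difference over the 11 probes was −0.01 at 30 nmol/min and −0.11 at 300 nmol/min, beside −0.11 and −0.11 over all tested probes. Of the 11, 6 were probes of FN1 and 2 of PDGFRA, so these counts and medians are not of independent genes. The 2 comparisons share their vehicle samples.

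No tested probe passed the test between the 2 doses. For 300 against 30 nmol/min the difference was 0.09 for PDGFRA at base 6249, −0.05 for HNF4A, −0.10 for COL4A1, 0.05 for LAMB1 and −0.04 for FN1 at base 7961, with limma adjusted p = 0.999 for each. The 95% intervals were widest for COL4A1, from −0.89 to 0.69, and narrowest for FN1, from −0.38 to 0.31. No group pair of the 11 probes was free of overlap in this comparison, which 1.56% of all tested probes were upward and 1.14% downward.

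**Figure D5:**
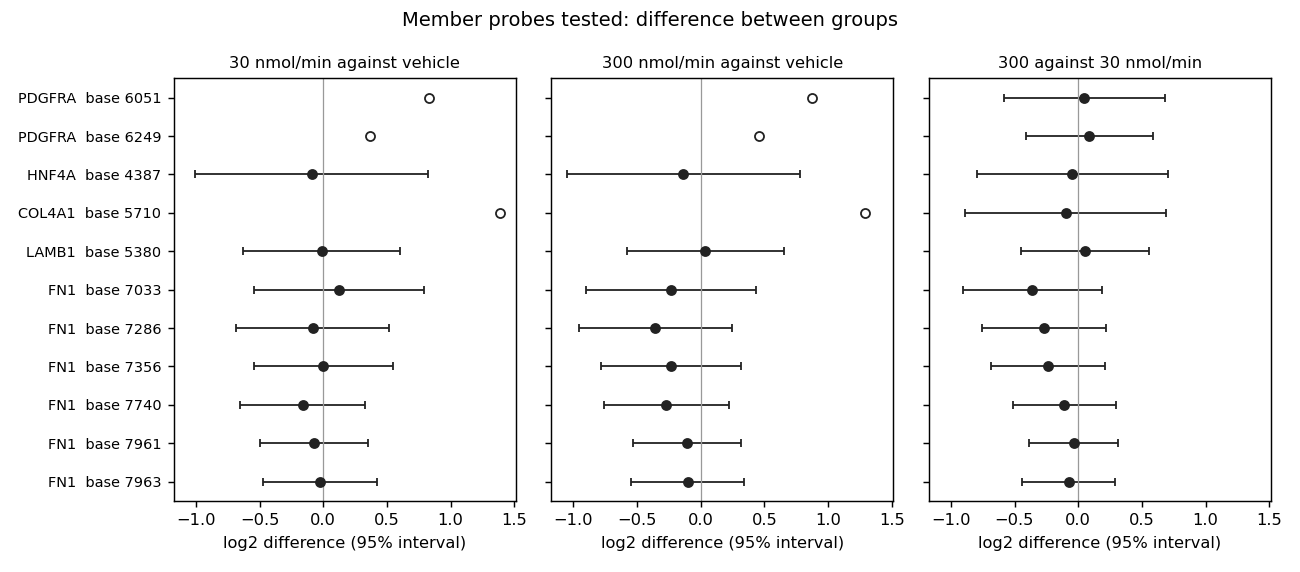
Difference on the log2 scale for the 11 tested probes in 3 comparisons, with 95% intervals from limma that are not adjusted for the number of probes. Open points, for COL4A1 and the 2 PDGFRA probes against vehicle, mark comparisons in which 1 group had no array well above background and are drawn with no interval; the points for HNF4A, LAMB1 and the FN1 probes lie within 0.36 of 0.

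Other genes of the lineage and of the matrix were read from lists that stand beside the 10 genes. Of 26 other primitive endoderm regulators and products, 25 were on the array and 6 were tested. DAB2, SPARC and CTSH were well above background on all 10 arrays, APOE on 9, APOA1 on 3 and KIT on 2. GATA6, the factor that starts the lineage, and SOX7, FOXA2, EOMES, TTR and AFP were at background on every array. Of the 6, none passed at 30 or at 300 nmol/min against vehicle. At an unadjusted limma p under 0.05 the counts were 0 and 1, the 1 being KIT, a receptor tyrosine kinase, at a fitted −1.19 (limma adjusted p = 0.304) from a probe well above background on 0 vehicle arrays and 1 array of each dose. Such counts in this and the next lists stand beside 11.3% and 13.8% of all tested probes, and nothing particular to a list is read from them. The KIT difference rests on vehicle values below the flag's limit, and no direction is read from it. For the 6, the median difference was −0.17 and −0.32 beside −0.10 and −0.11 over 5458 tested genes. SPARC, a collagen-binding protein of basement membranes, differed from vehicle by −0.37 (limma adjusted p = 0.546) and −0.32 (limma adjusted p = 0.530). CTSH, a lysosomal protease, differed by −0.11 (limma adjusted p = 0.849) and −0.31 (limma adjusted p = 0.477).

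The FGF, MAPK and PDGF signalling list, the pathway that drives inner cell mass cells towards primitive endoderm, had 13 tested genes of 29 on the array and none past the threshold in limma. At an unadjusted limma p under 0.05 it held 1 of 13 genes in each comparison with vehicle, FGF2, a smaller share than over all tested probes. FGF2, a fibroblast growth factor, lay at a mean scaled log2 level of −1.44 in vehicle, −2.09 at 30 nmol/min and −2.05 at 300 nmol/min. Its differences from vehicle were −0.65 (SE 0.22; limma adjusted p = 0.343) and −0.62 (SE 0.22; limma adjusted p = 0.288). NRAS, a small GTPase of the cascade, differed by −0.10 (limma adjusted p = 0.876) and 0.12 (limma adjusted p = 0.824). The median difference of the list was −0.10 and 0.05.

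Among 27 other laminin, collagen IV and basement membrane genes on the array, 10 were tested and none passed; unadjusted, the counts at a limma p under 0.05 were 0 at 30 nmol/min and 1, NID1, at 300 nmol/min. AGRN, a basement membrane heparan sulfate proteoglycan, differed from vehicle by −0.59 (SE 0.32; limma adjusted p = 0.489) and −0.48 (SE 0.32; limma adjusted p = 0.483). Of the 10 genes, 7 were lower and 3 higher than vehicle at each dose, and the list's median difference was −0.05 at 30 nmol/min and −0.48 at 300 nmol/min. Of 5458 tested genes 40.3% and 41.0% were higher, with medians of −0.10 and −0.11. COL4A4 and FBLN2 of this list were well above background on 0 vehicle arrays, and nothing particular to the list is read from its counts or medians. NID1, which links laminin to collagen IV, was among the 3 higher genes of the list and is named after its values were seen. It was well above background on 0 of 2 vehicle arrays, 2 of 4 at 30 nmol/min and 4 of 4 at 300 nmol/min, beside a mean of 8.31%, 14.5% and 15.6% of all probe spots in the same groups.

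The remaining lists had no gene past the threshold, nor at an unadjusted limma p under 0.05, in any comparison. Of 34 matrix receptors 6 were tested, with median differences of −0.01 and 0.01; VCL, which links integrins to actin, differed from vehicle by −0.37 (limma adjusted p = 0.504) and −0.15 (limma adjusted p = 0.752), and CD151, an integrin-associated tetraspanin, by 0.19 (limma adjusted p = 0.709) and 0.16 (limma adjusted p = 0.720). Of 25 genes of collagen and laminin assembly and secretion 12 were tested, with median differences of −0.07 and −0.25; PPIB, a prolyl isomerase of the collagen pathway, differed by −0.44 (limma adjusted p = 0.608) and −0.43 (limma adjusted p = 0.577). P4HB, a subunit of prolyl 4-hydroxylase, differed by 0.15 at 30 nmol/min (limma adjusted p = 0.778), and SEC13, a coat protein of export vesicles, by 0.18 at 300 nmol/min (limma adjusted p = 0.684). Of 24 matrix turnover genes 7 were tested, with median differences of 0.07 and −0.16; PLAU, the urokinase plasminogen activator, differed by 0.40 (SE 0.54; limma adjusted p = 0.778) at 30 nmol/min, CTSL by −0.17 (limma adjusted p = 0.786) at 300 nmol/min, and CTSB, like CTSL a lysosomal protease, by −0.09 (limma adjusted p = 0.885) and −0.20 (limma adjusted p = 0.694).

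The genes whose pattern over the 10 arrays was most like a member are given as a description, picked as the highest Pearson correlations among those 2491 common probes. For HNF4A these were GGA2 (r = 0.85), RACK1 (r = 0.83) and FTL (r = 0.83). For FN1 at base 7961 they were TIMM44 (r = 0.91), COX6B1 (r = 0.86) and PRDX2 (r = 0.84). Between the 5 measured genes, r over the 10 arrays ranged from −0.38, for LAMB1 and FN1, to 0.41, for PDGFRA and COL4A1, values that share the arrays' scaling. PDGFRA was well above background on only 6 of these arrays and COL4A1 on 7, and neither a shared pattern nor the lack of one is read from these values.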

How the data were processed

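Each deposited scanner file gives spot intensity from Agilent Feature Extraction, version 11.5.1.1 per the file headers and 10.5.1.1 per the submitters' processing notes. Per the file headers, the authors' processed intensity had its background subtracted, with no scaling across arrays. Flags for spots well above background and for outliers are scores of 0 or 1 in the deposited files. The deposited series matrix holds log2 values that equalled log2 processed signal less the all-probe 75th percentile of that array and less the median of that probe (on every array 99.96% or more of the values were within 0.01); its column medians ran from −0.31 to 0.22. The extraction protocol in the labels names endometrium, but every other label names embryos.

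Here 48 outlier spots were left out and 0 were saturated; log2 processed intensity was averaged per probe and scaled as the report states. A probe was tested (8938 of 43653) if 2 or more arrays had it well above background. limma 3.58.1 (R 4.3.3; lmFit, eBayes) had 1 coefficient per group over 10 arrays, with Benjamini-Hochberg adjustment over all tested probes; summaries used Python 3.11.15 and pandas 2.3.3. On simulated arrays with 200 changed probes of 8935, the fit recovered 25% of log2 changes of 1 and 69% of changes of 2 for 30 nmol/min against vehicle, and 20% and 70% for 300 nmol/min. The number of arrays limits the precision.

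Probes were assigned by the files' gene name or description (2 LAMA1 probes by description) and named through a RefSeq table of another assembly, used for names only; 3 probes described as laminin gamma 1 but named LAMB2 were left out and were at background. The 10 genes and all lists were chosen with earlier results of these data known. Named list genes have the 2 smallest p-values per list and comparison among genes well above background on all arrays. Same-numbered senktide samples deviated together (r = 0.487, 0.494, 0.565 and 0.574), but replicate number and slide largely coincide, and different-numbered pairs on slide 3 had r = 0.544 and 0.492. Alternatives covered scaling, background correction, filters, blocks, the series matrix and left-out samples. Protein and promoter sequences were not used here.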

Additional observations from a re-analysis of the deposited data

Results flagged for a closer look

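Of 22 groups of 4 samples examined (11 probes at 2 doses), 2 held a sample set apart from the other samples by more than Dixon's 95% limit for 4 samples; chance gives about 1 in 20. The scaled value of the COL4A1 probe at base 5710 was highest in 30 nmol/min replicate 2, at −1.68, a gap of 0.925 of the range. Without that sample the difference of 30 nmol/min from vehicle was 1.09 (limma adjusted p = 0.217) and the bound 1.04-fold. The FN1 probe at base 7961 was lowest in 30 nmol/min replicate 4, at 2.80, a gap of 0.907 of the range; without it the difference of 30 nmol/min from vehicle still did not pass the test.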

How the results depend on the processing

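No member probe passed the threshold under 21 of the 22 alternatives in any of the 4 comparisons. Under quantile normalization 1 probe, COL4A1 at base 5710, passed at 30 nmol/min, at 300 nmol/min and with both doses pooled (1 in each); the cause was not tested. There 107, 142 and 223 of all tested probes passed, against 0, 1 and 3 in the main setting, and with normexp and quantile normalization 36, 107 and 178. The scaling moved the median: the median difference of all tested probes from vehicle was −0.11 at both doses, 0.95 and 1.06 with the 75th percentile of all probes, 1.21 and 1.31 with the median of all probes, 0.32 and 0.37 with quantile normalization, −0.63 and −0.74 with normexp and the main scaling, and −0.54 and −0.60 with a floor per array. Of 321 recomputed differences of the 5 genes, 63 turned sign, none of them past the threshold before or after, and the cause was not tested beyond these shifts. Scaled to the all-probe 75th percentile, those differences were, in the order 30 nmol/min, 300 nmol/min and 300 against 30, 0.97, 1.04 and 0.069 for HNF4A and 0.99, 1.06 and 0.079 for FN1, with LAMB1 at 1.04 (30 nmol/min) and COL4A1 at 0.016 (300 against 30). The median of all probes gave 1.23, 1.29 and 0.059 for HNF4A and 1.25, 1.32 and 0.069 for FN1, with LAMB1 at 1.31 and COL4A1 at 0.0059. The series matrix gave 0.97, 1.04 and 0.069 for HNF4A and 0.99, 1.06 and 0.078 for FN1, with LAMB1 at 1.04 and COL4A1 at 0.016. With normexp and the main scaling PDGFRA was at −0.60, −0.71 and −0.11, COL4A1 at −0.48 and −0.58 against vehicle, FN1 at 0.18 and 0.14 against vehicle, and LAMB1 at −0.60 (300 nmol/min) and −0.083 (300 against 30). With a floor per array PDGFRA was at −0.45, −0.50 and −0.052. For 30 nmol/min against vehicle LAMB1 was at 0.27 with quantile normalization, 0.10 with normexp and quantile normalization, 0.16 with slide as a block and 0.074 over slides 1 and 2 alone, where HNF4A was at 0.065. Leaving out 1 sample at a time, in the same order, gave ranges of −0.36 to 0.19, −0.41 to 0.14 and −0.32 to 0.13 for HNF4A, −0.16 to 0.13, −0.11 to 0.18 and −0.083 to 0.16 for LAMB1, and −0.19 to 0.041, −0.22 to 0.0055 and −0.10 to 0.010 for FN1. For 300 against 30 the ranges were −0.081 to 0.23 for PDGFRA and −0.26 to 0.20 for COL4A1. The COL4A1 bounds were 2.65-fold and 2.68-fold with the 75th percentile of all probes, 3.19-fold and 3.20-fold with the median of all probes, and over slides 1 and 2 alone 1.59-fold at 30 nmol/min and none above 1 at 300 nmol/min. The replicate block changed no call; COL4A1 was then at 1.42 (limma adjusted p = 0.360) and 1.32 (limma adjusted p = 0.322), and LAMB1 at 0.16 for 30 nmol/min.

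With 2 vehicle samples on slides 1 and 2 only, a gene at background in vehicle has only a bound there, and 29 member probes have no level on any array.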
